A study of Mus musculus with 4 samples.

Results

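Macrophages with low MHC class II were followed in mouse testicular organoids (TOs) and in testes. From 41484 barcodes kept by the limits on genes, UMIs and mitochondrial UMIs, 1393 were chosen. A chosen barcode had at least 4 of the 7 genes Ptprc, Cd68, C1qa, Adgre1, Lyz2, Tyrobp and Ctss detected and at least 4 UMIs of C1qa, Lyz2 and Tyrobp together. It also held fewer than 5 UMIs of H2-Aa, H2-Ab1 and H2-Eb1 per 10000 UMIs, and the other 200 of 1593 macrophages were above that limit. The cells were thus chosen by the UMIs of these 10 genes, whose levels are given only as a description. The chosen cells, called low class II macrophages here, numbered 325 and 706 in the TO libraries (replicates 1 and 2) and 236 and 126 in the testis libraries (replicates 1 and 2).

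The 4 unsorted 10x Genomics libraries came from 2 TO samples and 2 testis samples of mice, which the study's methods give as the ICR strain. TOs were spheroids reaggregated from dissociated testis cells of neonatal mice and grown in basement membrane extract, later free of it, in serum replacement medium with FSH, testosterone and antioxidants. The design text gives day 28 for TOs and an age of 28 days for testes, and the study's methods also give day 28, while the dissociation protocol in the labels names day 21 TOs. According to the study, organoids for sequencing were taken from independent batches and the testes were biological replicates. No label ties a library to a batch, animal or culture, so p-values measure the spread between these samples only. TOs received no blood supply, and the origin of the macrophages in either condition was not tested. In all, low class II macrophages gave 2594889 and 5134740 UMIs in TOs and 862352 and 654345 in testes, with medians of 7097, 6497, 3261 and 5055 per cell.

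Macrophages are phagocytes that clear dying cells and debris, and C1q, lysozyme and the adaptor Tyrobp are among their typical products. In the testis they live between the tubules beside Leydig cells and around the tubules, and those of the interstitium are known for low MHC class II and for genes of long-lived tissue macrophages. MHC class II molecules present peptides to helper T cells. Macrophages that take up much lipid and debris are known to express Spp1, Trem2, Gpnmb and other lipid and lysosome genes.

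Throughout, the 4 values of a gene are in the order TO replicate 1, TO replicate 2, testis replicate 1 and testis replicate 2, and a level is the UMIs of a gene in 1000000 UMIs summed over the chosen cells of a library (CPM). Among the rule genes, Lyz2 was at 24684, 19451, 5155 and 4693 CPM, C1qa at 2975, 2746, 4233 and 3882 CPM, Ptprc at 253, 276, 205 and 214 CPM, and Adgre1 at 459, 620, 390 and 448 CPM. The C1q gene was thus higher in both testes, and lysozyme in both TOs. A UMI sum of C1qa, Lyz2 and Tyrobp had medians of 184 and 148 per cell in TOs and 36 and 50 in testes, so the limit of 4 lay far below a typical cell. Between 4 and 9 such UMIs were found in 1, 9, 10 and 4 chosen cells. No class II UMI at all was present in 97.5%, 85.7%, 90.7% and 94.4% of the chosen cells. Just inside the class II limit, at 2.5 to 5 UMIs per 10000, were 5, 37, 18 and 4 cells, and just outside, at 5 to 10, were 1, 27, 5 and 2 cells.

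Macrophage markers that the rule did not use were present in every library. Csf1r, the receptor for the growth factor CSF1, was at 384, 549, 568 and 402 CPM, and C1qc was at 2927, 3150, 3285 and 4319 CPM. In the libraries of the condition where each was higher, Csf1r was at least 723 times and C1qc at least 2536 times its CPM in the other cells kept. Of all 15 such markers, 15 were tested between TOs and testes. Markers of T and NK cells summed to 2.31, 0.779, 10.4 and 7.64 CPM and had Cd3d as their most abundant gene, with Cd3g, Nkg7 and Ncr1 at 0 in all 4 libraries. The dendritic cell genes Xcr1, Clec9a, Cd209a and Ccr7, the neutrophil genes S100a9, Retnlg and Ly6g, the B cell gene Pax5 and the monocyte gene Ly6c2 were also at 0. Summed over each list, monocyte genes reached 58.2, 106, 88.1 and 48.9 CPM (led by Plac8), dendritic cell genes 14.3, 15.4, 97.4 and 85.6 CPM (Itgae), neutrophil genes 23.1, 30.6, 8.12 and 15.3 CPM (Csf3r), B cell genes 67.8, 114, 66.1 and 56.5 CPM (Ighm), and mast cell genes 5.40, 2.14, 16.2 and 3.06 CPM (Hdc). None of these lists came near the 9936 to 11199 CPM of the 15 macrophage markers. No barcode of a low class II macrophage was shared between any pair of libraries. With Scrublet, a doublet caller, a set quota of top-scoring barcodes was marked. It was 1715 of 14643, 1248 of 12491, 1187 of 12179 and 1119 of 11826 barcodes. Of the chosen cells, 18.8%, 14.6%, 16.5% and 15.9% were marked, a larger share than among all barcodes in each library. Marked cells were kept in the main analysis and left out in an alternative.

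RNA of other testis cells was found in these barcodes and differed between conditions. Spermatid genes summed to 3.08, 6.82, 3710 and 8725 CPM in low class II macrophages, with Prm1, a sperm protamine, the most abundant at 0, 0.390, 1238 and 2881 CPM. In the other cells kept, the same list stood at 6.30, 11.5, 10051 and 72199 CPM. Stromal cell genes summed to 862, 1817, 324 and 53.5 CPM and were led by Dcn, a matrix proteoglycan, at 319, 631, 103 and 10.7 CPM, and of 5 tested stromal genes 4 were higher in TOs by the test described below (against 2.97% of all genes tested). Sertoli cell genes summed to 391.5, 214, 126 and 44.3 CPM, led by Aard, Leydig cell genes to 341, 91.3, 580 and 688 CPM, led by Cyp17a1, and peritubular genes to 426, 343, 348 and 157 CPM, led by Acta2. Lists for spermatogonia, spermatocytes and endothelial cells reached at most 197, 138 and 44.8 CPM in any library, led by Ddx4, Sycp1 and Egfl7. The part of this RNA in the differences below was not tested as a whole, but 3 steps bear on it. Genes that were 5 times or more above the chosen cells in the other cells of either condition were left out, genes named for their change had to exceed the other cells by 2 times, and counts were repeated in cells with at most 20 UMIs per 10000 of the Sertoli, Leydig, peritubular and stromal lists. That last limit left out 73, 132, 18 and 3 cells.

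The first question was whether these cells took the same part of TOs and testes. Low class II macrophages made up 3.02% of cells kept in TO replicate 1 (95% exact binomial interval 2.71 to 3.36) and 7.46% in TO replicate 2 (6.94 to 8.01). In testis replicate 1 the share was 2.18% (1.92 to 2.48) and in testis replicate 2 1.20% (1.00 to 1.43). Both TO values were above both testis values, by 3.55 percentage points on average, and the TO replicates differed from each other by more than that. An exact two-sided permutation test gave p = 0.33, the smallest that 2 against 2 libraries allow. Testes held many more germ cells, and with cells carrying Vim or meeting the macrophage rule as the denominator the shares were 4.45%, 9.23%, 8.96% and 7.49%. The groups then overlapped, and the mean was 1.38 percentage points lower in TOs (exact permutation p = 1). Among macrophages, the low class II share was 98.2%, 85.2%, 89.7% and 74.1% (exact permutation p = 0.67), with overlapping groups. Intervals cover counting error only.

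**Figure D1:**
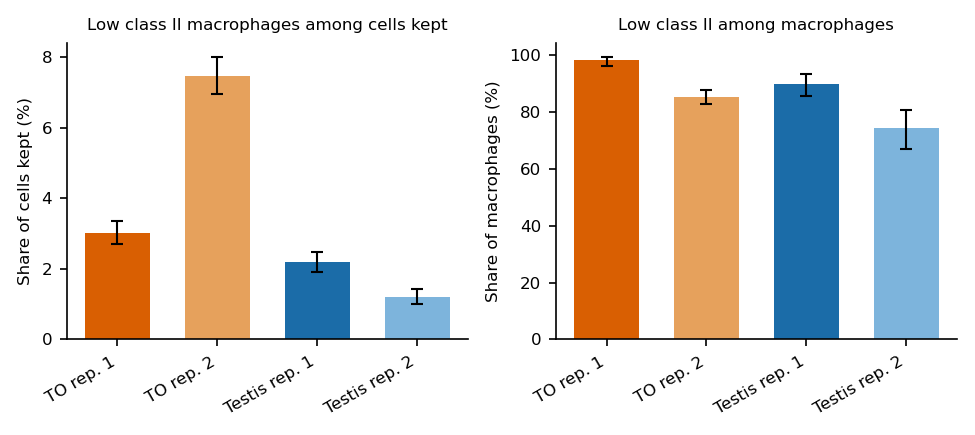
Bars give the share (%) of low class II macrophages among all cells kept (left) and among macrophages (right) in each of the 4 libraries, with 95% exact binomial intervals. On the left the TO bars stand at 3.02% and 7.46% and the testis bars at 2.18% and 1.20%, and on the right TO replicate 2 (85.2%) lies below testis replicate 1 (89.7%).

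The next comparison asked which genes differed between TOs and testes within these cells. UMIs were summed per library and tested with edgeR's quasi-likelihood F test, and calls needed a log2 fold change beyond 1 in either direction with a p below 0.01 after Benjamini-Hochberg adjustment. Of 11297 genes tested, 336 were higher in TOs (2.97%) and 1457 lower (12.9%), and the median log2 fold change was 0.07. Lyz2, which the rule used, is among the 336 and its call is not taken as a result. Of the 1457 lower genes, 1369 (94.0%) were below their level in the other cells in at least 1 testis library, as spermatid genes were. By the same measure in TO libraries, 139 (41.4%) of the 336 higher genes were below the other cells. Genes were named from the 2024 tested genes at least 2 times above the other cells in both libraries of the higher condition. A change helps a gene into that set, so its 146 higher (7.21%) and 81 lower genes (4.0%) are given as a description. These numbers rest on both testis libraries, since leaving out testis replicate 1 left 3 higher (0.025% of those tested) and 197 lower genes (1.64%), and leaving out testis replicate 2 left 24 (0.196%) and 682 (5.57%). With an estimated background subtracted from the sums, 0 genes were called by edgeR, while 998 had an unadjusted p below 0.05. That background was the profile of all deposited barcodes of a library, macrophages included, scaled by spermatid UMIs. RNA outside cells was not measured.

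Spp1, which encodes the secreted phosphoprotein osteopontin, had the largest rise among genes at least 2 times above the other cells. It lies on chromosome 5 at 104435118-104441050 of GRCm38 (plus strand) and overlaps Gm42793 on its own strand, so its exact count is uncertain. Its level was 4292, 638, 2.32 and 1.53 CPM. Both TOs were far above both testes, and TO replicate 1 was 6.73 times TO replicate 2. With 14412 UMIs in TOs and 3 in testes, the pooled ratio was 943 (95% counting interval 322 to 4571). The log2 fold change was 10.44 (SE 1.17, adjusted p = 0.000149 by edgeR).

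The other 9 genes of largest rise were mostly surface receptors and secreted proteins. Clec4e and Clec4d, paired C-type lectin receptors that sense microbial glycolipids and dead cells, were at 90.6, 39.0, 1.16 and 0 CPM and at 265, 209, 11.6 and 1.53 CPM. Cd9, a tetraspanin of the cell surface, was at 830, 530.3, 22.0 and 16.8 CPM, and Cd300lb, an activating receptor, at 89.4, 93.9, 1.16 and 1.53 CPM. The chemokine Ccl4 was at 1352, 478, 44.1 and 18.3 CPM. Both TOs were above both testes for each of these genes, although for Clec4e and Ccl4 the TO replicates differed from each other by more than the lower TO library did from the higher testis library. The proton pump subunit Atp6v0d2 was at 91.3, 54.5, 3.48 and 0 CPM, and the transcription factor St18 was at 89.4, 305, 3.48 and 1.53 CPM, here with TO replicate 2 the higher. Bcl2a1b, an anti-apoptotic protein, was at 276, 403, 6.96 and 19.9 CPM, and Lyz1, a lysozyme, at 514, 199.6, 2.32 and 9.17 CPM. For St18 and Lyz1, too, the TO replicates lay farther apart than the lower TO library and the higher testis library. Bcl2a1b and Lyz1 have near-identical copies elsewhere in the genome, so the split of their reads is uncertain. Bcl2a1b also overlaps Gm29094 on its own strand. Log2 fold changes of these 9 genes ran from 4.89 (SE 0.45, Bcl2a1b) to 6.66 (SE 0.89, Clec4e), with adjusted p from 1.52e-05 for Cd9 to 0.000439 for Clec4e. Clec4e, Cd300lb and Atp6v0d2 had 1, 2 and 3 UMIs in testes, with pooled ratios of 85.4 (15.2 to 3379), 70.1 (19.3 to 579.5) and 33.8 (11.5 to 164.5). Leaving out testis replicate 1 kept the call for Clec4d only among these 10 genes, with the same direction in all 10.

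Cd209f and Cd209g, C-type lectins of the DC-SIGN family, had the largest falls among genes at least 2 times above the other cells. Cd209f, on chromosome 8 at 4102787-4105835 (minus strand), was at 4.62, 0.974, 648 and 1025 CPM, and its neighbour Cd209g, at 4134098-4137707 (plus strand), was at 0, 0, 148 and 286 CPM. Testes and TOs did not approach each other in either gene. Against a floor of 3 UMIs over the TO group, Cd209g was at least 535-fold lower in TOs. The log2 fold change of Cd209f was -8.26 (SE 0.61, adjusted p = 1.52e-05 by edgeR). Timd4, a receptor for phosphatidylserine on dying cells, was at 3.47, 0, 116 and 128 CPM, with log2 fold change -6.38 (SE 0.74).

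The other 7 genes of largest fall had varied roles. Slc40a1 encodes ferroportin, the cellular iron exporter, and was at 12.7, 17.9, 312 and 379 CPM (log2 fold change -4.30, SE 0.30, adjusted p = 1.28e-05 by edgeR). It kept its call without any single library. Iigp1, an interferon-inducible GTPase, was at 1.54, 2.92, 136 and 67.2 CPM, and Ddx60, a helicase of the antiviral response, at 32.8, 24.9, 434 and 462 CPM. Ifi27l2a, another interferon-inducible gene, was at 53.2, 26.3, 867 and 283 CPM, so that testis replicate 1 was 3.07 times testis replicate 2. The cytokines Tslp (3.08, 0.974, 101 and 58.1 CPM) and Il18 (3.08, 3.51, 49.9 and 59.6 CPM) and Gm4951 (6.55, 5.65, 107 and 84.1 CPM) were also lower in both TOs than in both testes. Tslp and Il18 overlap genes of the other strand, and Gm4951 overlaps Gm5970 on its own strand, so its count is uncertain. Without testis replicate 1, 4 of these 10 falling genes kept their call, and all 10 kept their direction.

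**Figure D2:**
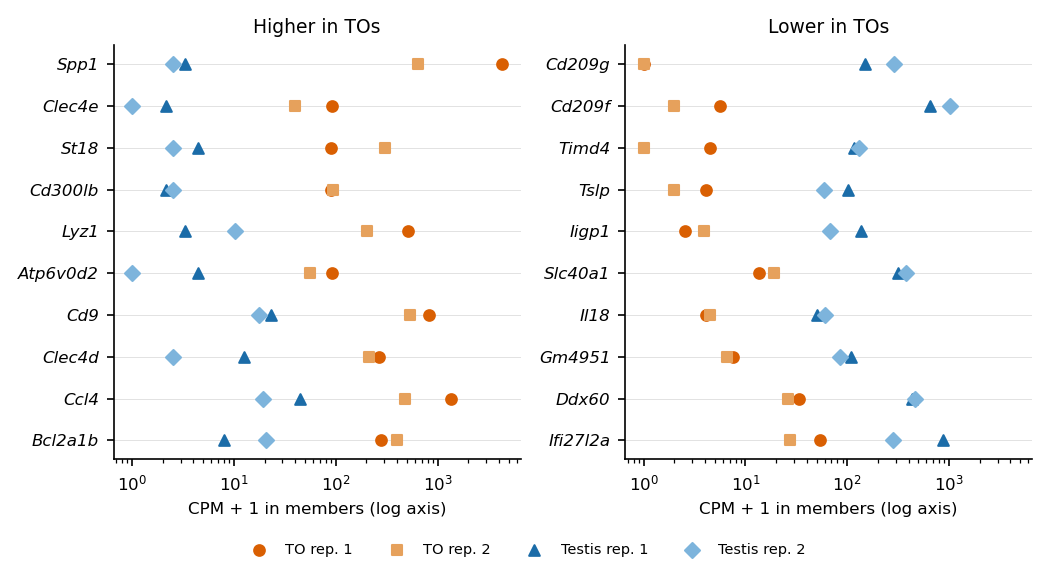
Levels (CPM + 1, log axis) of the 10 genes of largest rise (left) and of largest fall (right) in low class II macrophages, with 1 point per library. TO points lie right of testis points for every gene on the left and left of them for every gene on the right, and the TO replicates differ most in Spp1 (4292 against 638 CPM).

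Spp1 and Pf4, the chemokine platelet factor 4, are shown by sequence because they changed in opposite directions and both hold, just before their start sites, a match to GAGGAAGT, the letters of a PU.1 site. PU.1 (gene Spi1) is a transcription factor that macrophages need, and Spi1 itself was at 301, 374, 209 and 322 CPM. Both sequences are the 250 bases before a RefSeq start site on the plus strand of GRCm38.p6, chr5:104434861-104435110 for Spp1 and chr5:90772185-90772434 for Pf4. Capitals mark the match, which in Pf4 is the reverse complement ACTTCCTC, and its first base lies 113 and 10 bases before the start.
Spp1: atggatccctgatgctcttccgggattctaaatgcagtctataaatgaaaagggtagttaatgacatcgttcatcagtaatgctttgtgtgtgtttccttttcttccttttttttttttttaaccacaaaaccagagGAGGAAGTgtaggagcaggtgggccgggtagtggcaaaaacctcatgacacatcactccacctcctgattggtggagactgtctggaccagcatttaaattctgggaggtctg
Pf4: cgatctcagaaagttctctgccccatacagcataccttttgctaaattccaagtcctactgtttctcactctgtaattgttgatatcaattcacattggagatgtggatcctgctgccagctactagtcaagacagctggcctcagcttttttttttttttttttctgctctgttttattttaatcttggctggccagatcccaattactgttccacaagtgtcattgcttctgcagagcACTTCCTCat
On either strand, this motif was present in 2.44% of the 32851 promoters of the table, and of the 20 genes named above, 12 matched the table and 2 (Spp1 and Bcl2a1b) had it. A match is a description of the letters, not of binding.

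Some genes known from resident tissue macrophages were lower in TOs. Of 24 such genes, 22 were tested, of which 0 were higher, 7 lower (against 12.9% of all genes tested) and 15 not called, and their median log2 fold change was -0.89 against 0.07 over all genes tested. Apart from the lectins and Timd4, the 7 were Ccl24, F13a1, Cbr2 and Pf4. F13a1, a coagulation factor subunit made by macrophages, was at 252, 94.5, 2069 and 1649 CPM (log2 fold change -3.25, SE 0.45), and Pf4 was at 215, 198, 887 and 1045 CPM (-2.06, SE 0.27). Ccl24, a chemokine for eosinophils, was at 18.1, 41.7, 361 and 365 CPM. Within this list, the more abundant genes that were not called were Selenop, a selenium carrier (1294, 1718, 2050.2 and 2020.3 CPM), and the mannose receptor Mrc1 (889, 1159.9, 1429 and 1600.1 CPM). In cells with few somatic UMIs 0 of the list were higher and 8 lower, where 14.3% of genes tested were lower. Leaving out either testis library left 2 of the list lower, and leaving out either TO library left 11 or 8.

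Among lipid handling and lysosome genes, more were higher than lower. This list, like the others, was chosen with earlier results of these data known. Its higher genes include Spp1 and Cd9, named above. Of 26 genes, 22 were tested, 10 were higher (against 2.97% of all), 1 was lower (Apoc1, a call lost on leaving out any of the 4 libraries and in cells with few somatic UMIs) and 11 were not called, and the median log2 fold change was 1.04. Lgals3, a galectin, was at 1537, 759, 78.9 and 71.8 CPM (log2 fold change 4.10, SE 0.40). Fabp5, a fatty acid carrier, was at 879.8, 887, 46.4 and 48.9 CPM (4.38, SE 0.29), and it kept its call without any single library. The fatty acid receptor Cd36 (717, 573, 46.4 and 61.1 CPM), lipoprotein lipase Lpl (814, 538, 67.3 and 44.3 CPM), lysosomal acid lipase Lipa (539, 517, 143 and 112 CPM) and the lipid receptor Trem2 (1109.9, 988, 336 and 408 CPM) were higher in both TOs than in both testes. Apoe, the apolipoprotein most abundant in this list, was at 12430.2, 18282, 11169.5 and 10771 CPM and was not called (adjusted p = 0.12 by edgeR), and neither was the protease Ctsb (3829, 3002, 2402 and 2352 CPM).

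Gpnmb and Mmp12 were left out of that test, because testis members had no UMI of them while the other testis cells had a few. Gpnmb, a glycoprotein of lysosomes and melanosomes, was at 411, 210.5, 0 and 0 CPM, and the elastase Mmp12 at 429, 168, 0 and 0 CPM. Against a floor of 3 UMIs over the testis group, Gpnmb was at least 140.5-fold and Mmp12 at least 129-fold higher in TOs. In cells with few somatic UMIs, 12 genes of the lipid and lysosome list were higher against 3.64% of all, 1 was higher without testis replicate 1 and 3 without testis replicate 2.

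Genes of the chemokine list were either higher in TOs or not called, while the chemokines Ccl24 and Pf4, counted in the resident list, were lower. Of 18 chemokines and receptors, 16 were tested, 8 were higher (against 2.97% of all), 0 lower and 8 not called, with a median log2 fold change of 2.33. The monocyte attractant Ccl2 was at 1088, 437, 121 and 108.5 CPM (log2 fold change 2.91, SE 0.43), Ccl3 at 887, 434, 96.2 and 44.3 CPM (3.39, SE 0.46), and Ccl6 at 292, 92.3, 29.0 and 10.7 CPM (3.39, SE 0.62). Ccl9, Ccl8, Ccl12 and Cxcl16 were the others besides Ccl4. For the neutrophil chemokine Cxcl2 the level was 631, 57.5, 23.2 and 7.64 CPM, and its log2 fold change of 4.59 missed the threshold (SE 1.06, adjusted p = 0.0107 by edgeR), and TO replicate 1 was 11.0 times TO replicate 2. Among receptors, Cx3cr1 (264, 480.3, 249 and 396 CPM) was not called and overlapped between conditions. Every call of this list was lost on leaving out either testis library.

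Among inflammatory and NF-kB genes, 15 of 22 were tested, 4 were higher (Acod1, Clec4e, Clec4d and Nfkbia) (against 2.97% of all) and 0 lower, with a median log2 fold change of 1.79. Without either testis library 1 was higher, without TO replicate 2 the count was 9, and in cells with few somatic UMIs it was 8. Nfkbia, which encodes the NF-kB inhibitor, was at 494, 296, 114 and 105 CPM (log2 fold change 2.02, SE 0.32). Acod1, the enzyme that makes itaconate, was at 17.3, 10.5, 0 and 0 CPM, at least 6.48-fold higher in TOs against the floor. Tnf was at 405, 98.7, 74.2 and 99.3 CPM, with TO replicate 2 inside the testis range, and was not called. Nos2, Chil3 and Retnla, often used to mark activation states, had 0 UMIs in all 4 libraries, which for the TO group allows up to 0.388 CPM and for the testis group up to 1.98 CPM.

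Interferon-response genes had the lowest median log2 fold change of the 16 lists outside those for other cell types, at -1.62. Of 16 genes, 15 were in the files and 12 tested, 0 were higher and 2 lower (against 12.9% of all), among them Ifi27l2a. Without testis replicate 1 the list had 0 lower genes, without TO replicate 2 it had 2 higher and 3 lower, without TO replicate 1 it had 5 lower, and in cells with few somatic UMIs 4. Summed over the list, the levels of 1068, 564, 1908 and 669 CPM overlapped between conditions. Ifit3 (5.40, 0.584, 42.9 and 18.3 CPM, adjusted p = 0.0107 by edgeR) missed the threshold. Ifitm3 at 526, 214, 228 and 71.8 CPM and Bst2 at 359, 249, 366 and 127 CPM, the most abundant genes not called, overlapped between conditions.

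Of 12 MHC class I genes, 12 were tested and 0 were called by edgeR, with a median of -0.10. At an unadjusted p below 0.05 the count was 2 (Tap1 and Psmb9), and DESeq2 called 0. H2-D1 was at 1111, 1327, 843 and 1198 CPM and H2-K1 at 1102, 931, 1287 and 1105 CPM. Of 13 class II machinery and co-stimulation genes outside the rule, 8 were tested and 1 was higher (against 2.97% of all), with a median of -0.58. It was Cd83 (361, 186, 81.2 and 59.6 CPM, log2 fold change 2.12, SE 0.37), a surface glycoprotein of activated antigen-presenting cells. The Cd83 call was lost on leaving out either testis library. The invariant chain Cd74, which travels with class II molecules, was at 38.2, 114, 66.1 and 56.5 CPM, with TO replicate 2 highest and TO replicate 1 lowest, and Cd86, a co-stimulatory ligand, was at 168, 122, 330.5 and 261 CPM (adjusted p = 0.046 by edgeR).

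Most markers outside the rule and most phagocytosis genes did not pass the thresholds, and without testis replicate 1 both lists had 0 higher genes, without testis replicate 2 each had 1. Of the 15 markers, 3 were higher (against 2.97% of all genes tested), the lipopolysaccharide co-receptor Cd14 (615, 513, 69.6 and 107 CPM), the C5a receptor C5ar1 (349.9, 276, 69.6 and 59.6 CPM) and the pore protein Mpeg1 (402, 481, 93.9 and 107 CPM), and 0 were lower, with a median of 0.37. Of 20 phagocytosis, complement and Fc receptor genes, 19 were tested and 4 were higher (against 2.97% of all), Cd14 and C5ar1 again, the scavenger receptor Marco (268, 86.3, 6.96 and 7.64 CPM) and C3 (11.9, 19.9, 2.32 and 1.53 CPM). C3 had 3 UMIs in testes, with a pooled ratio of 8.70 (2.91 to 42.7). The efferocytosis receptor Mertk was at 106, 133, 259 and 220.1 CPM, lower in both TOs, with a log2 fold change of -0.83 that did not pass the threshold.

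Transcription factor and CSF receptor genes were tested for 20 of 22, of which 6 were higher (against 2.97% of all) and 0 lower, with a median of 0.87. Without either testis library, 1 was higher. Cebpb, a factor of the acute inflammatory response, was at 371, 527, 54.5 and 148 CPM (log2 fold change 2.33, SE 0.44), and Mitf, a factor of lysosome genes, at 317, 397, 170.5 and 176 CPM (1.21, SE 0.26). Id2 and Id3, inhibitors of helix-loop-helix factors, also rose but did not exceed their level in the other TO cells. Zeb2 (1259, 1698, 1599 and 1447 CPM) was the most abundant gene of the list that was not called, followed by Klf2 (793, 319, 715 and 775 CPM). Of 11 iron genes, 3 were higher and Slc40a1 lower, against 2.97% and 12.9% of all genes. Without either testis library 0 were higher. Fth1, the ferritin heavy chain that stores iron, was at 19081, 13743, 5325 and 5638 CPM (1.75, SE 0.28), the transferrin receptor Tfrc at 108, 95.4, 30.2 and 30.6 CPM (1.91, SE 0.27), and the phagosome metal transporter Slc11a1 at 86.7, 128, 31.3 and 30.6 CPM (1.96, SE 0.30). Ferritin light chain Ftl1, at 7569.9, 7062, 6165 and 5127 CPM, was not called.

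Of 15 growth factors and Leydig cell signals, 11 were tested, 1 was higher and 2 lower, against 2.97% and 12.9% of all genes. The count of lower genes was near that share. Of all lower genes, however, 94.0% were below the other cells in at least 1 testis library. Without either testis library 0 genes of this list were called in either direction. Ch25h, which makes 25-hydroxycholesterol, a sterol known to feed Leydig cell steroid synthesis, was at 133, 48.7, 6.96 and 7.64 CPM (log2 fold change 3.79, SE 0.61). The growth factor Pdgfc was at 63.2, 67.2, 183 and 298 CPM (-1.71, SE 0.29) and the matrix protein Tgfbi at 57.8, 76.0, 194 and 246 CPM (-1.54, SE 0.26). Igf1, a growth factor, was at 795, 836, 517 and 553 CPM, higher in both TOs without passing the threshold (adjusted p = 0.0497 by edgeR), and it stood 1.46 times or more above the other TO cells.

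Counts in the proliferation and glycolysis lists were near the shares over all genes tested, 2.97% higher and 12.9% lower. The share of lower genes is a weak yardstick, since 94.0% of them were below the other cells in at least 1 testis library. Of 14 cell division genes, 14 were tested and 0 were higher, and Ccnb2 was lower (34.7, 22.8, 143 and 65.7 CPM), a gene below its level in the other testis cells. The Ccnb2 call was lost without TO replicate 2 and on leaving out either testis library. Mki67, which marks cycling cells, was at 77.1, 55.7, 34.8 and 27.5 CPM and was not called (adjusted p = 0.016 by edgeR). Of 20 glycolysis and hypoxia genes, 16 were tested, 0 were higher and 1 was lower (Hk1, a call lost without testis replicate 1). In cells with few somatic UMIs, the cell division and glycolysis lists had 1 higher gene each, where 3.64% of genes tested were higher. Of 16 immediate-early and heat shock genes, 3 were higher (Junb, Ier2 and Zfp36) and 1 lower (Dnajb1), against 2.97% and 12.9% of all genes, with a median of 1.56. DESeq2 called 7 of the list higher and 2 lower. Junb was at 945, 626, 245 and 165 CPM, below its level in the other TO cells. Without TO replicate 2, 10 genes of that list were higher, and without either testis library 0. Only 4 of 10 osteoclast-type genes were tested and Atp6v0d2 was higher (against 2.97% of all), while Calcr had 0 UMIs in all 4 libraries. Tnfrsf11a, the receptor RANK, was at 106, 198, 184 and 145 CPM and was not called.

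**Figure D3:**
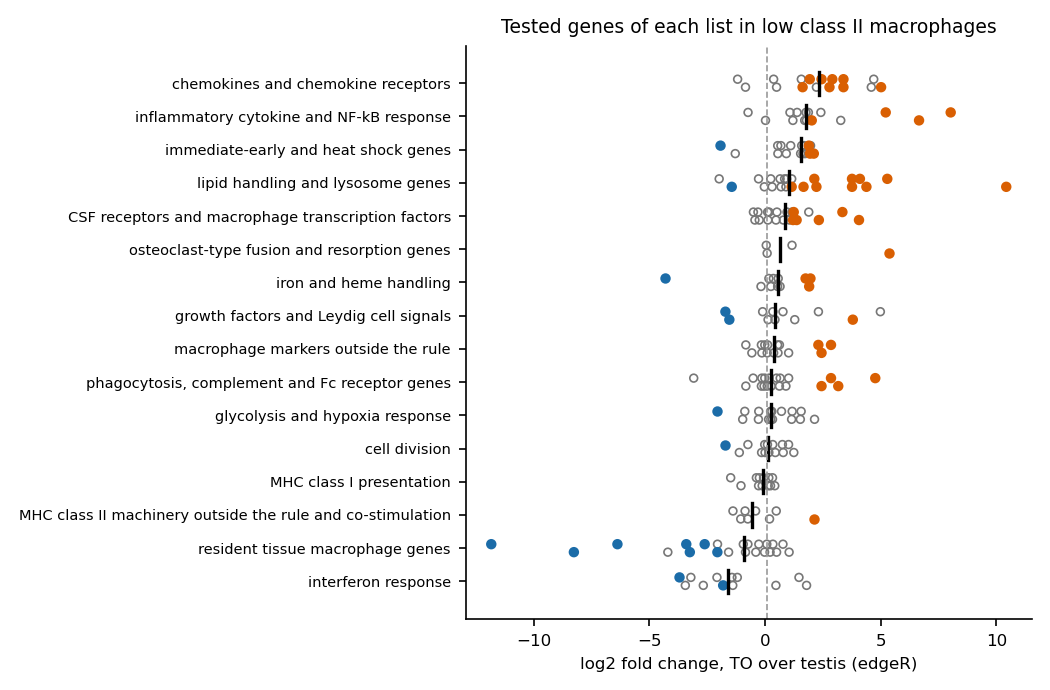
Points are the tested genes of each list, placed by log2 fold change of TO over testis (edgeR), filled where called (orange higher, blue lower). Black bars are list medians, from -1.62 for interferon response to 2.33 for chemokines, and the dashed line is the median of all genes tested (0.07).

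To compare cells at equal depth, each was thinned to 1500 UMIs, which left out 1 cell of TO replicate 2. The share of low class II macrophages with a Spp1 UMI was then 50.2%, 21.8%, 0% and 0.794%, and 0 of 236 cells in testis replicate 1 allows a share of up to 1.27% at a floor of 3 counts (upper end of the 95% exact interval 1.55%). In other cells thinned alike the shares were 3.34%, 0.488%, 0.256% and 0.117%. The single testis replicate 2 cell with a Spp1 UMI is too few to set apart from the other cells. F13a1 showed the reverse, with 21.2%, 8.51%, 83.5% and 83.3%, against at most 1.23% in other cells. Trem2 was detected in 76.3%, 70.6%, 36.4% and 35.7% of cells, and Csf1r in 44.3%, 58.0%, 58.5% and 42.9%. Csf1r overlapped between conditions, while Spp1, F13a1 and Trem2 did not. Among the 22 genes compared this way, an exact two-sided permutation test could not give a p below 0.33, and without thinning every direction was the same (Spp1 at a mean of 54.0% in TOs and 0.821% in testes).

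**Figure D4:**
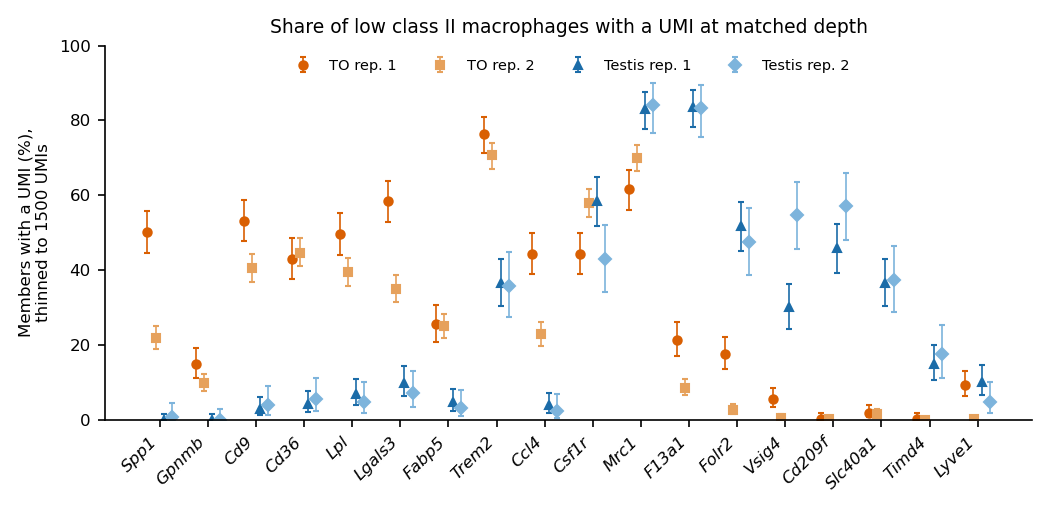
Points give the share (%) of low class II macrophages with at least 1 UMI of a gene after thinning to 1500 UMIs, per library, with 95% exact binomial intervals. Lipid genes at the left are high in TOs, as in Trem2 (76.3% and 70.6% against 36.4% and 35.7%), Csf1r overlaps, and F13a1 to Timd4 are higher in testes.

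Within a library, UMIs of the 2 sets of genes could occur in the same barcode. At least 1 UMI of Folr2, F13a1, Cbr2, Vsig4 or Lyve1 was found in 47.4%, 17.6%, 89.8% and 92.9% of thinned cells. In other cells each of these 5 genes alone had a UMI in at most 1.23%, and the share with any of them was not computed there. In TO replicate 1, 41.7% of the 163 cells with Spp1 also had such a UMI, against 53.1% of those without, and in TO replicate 2 the shares were 11.0% of 154 cells and 19.4%. Barcodes marked by Scrublet were kept here, and the part of doublets in barcodes with both was not tested.

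The TO libraries were not alike in the resident genes, as some genes picked after their values were seen show. Lyve1, a hyaluronan receptor, was at 109, 2.73, 78.9 and 35.1 CPM, 40.0 times higher in TO replicate 1 than in TO replicate 2 and above both testes there. The folate receptor Folr2 (319.9, 28.6, 655 and 513 CPM) and the complement receptor Vsig4 (75.5, 3.31, 485 and 1091 CPM) were lower in both TOs than in both testes. Neither was called (adjusted p = 0.19 and 0.015 by edgeR), and both were called without TO replicate 1, Vsig4 also without TO replicate 2.

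Finally, the TO effect was compared between low and high class II macrophages, with the library as a block. The high class numbered 6, 123, 27 and 44 cells with 31267, 785108, 70022 and 120253 UMIs, so its values in TO replicate 1 are thin. Of 8420 genes tested, 25 had a more positive TO effect in the low class (0.297%) and 29 a more negative one (0.344%). For Spp1 the high class was at 159.9, 432, 28.6 and 166 CPM, with testis replicate 2 above TO replicate 1, and the log2 interaction was 7.42 (SE 0.88, adjusted p = 2.79e-13 by edgeR). Cd9 in the high class was at 736, 564, 199.9 and 383 CPM and Ccl4 at 159.9, 475, 386 and 249 CPM, with interactions of 3.98 (SE 0.58) and 4.37 (SE 0.57). With any 1 library left out, the interaction of Spp1 ran from 5.83 to 10.56 and that of Ccl4 from 3.27 to 6.83. Folr2 in the high class was at 192, 29.3, 57.1 and 0 CPM (interaction -4.40, SE 0.80), and Vsig4 at 64.0, 11.5, 129 and 8.32 CPM (-4.66, SE 0.86). Both calls were lost without TO replicate 2 as well as without testis replicate 2. Leaving out 1 library moved the interaction of Folr2 between -12.21 and -3.10, and that of Vsig4 between -7.84 and -2.74, and Vsig4 was not called with limits of 2 and 10 class II UMIs per 10000 for the low and high class. By these values the high class of the testes had more Spp1, Cd9 and Ccl4 and less Folr2 and Vsig4 than the low class of the same library. Its testis values rest on few UMIs, in testis replicates 1 and 2. These were 2 and 20 for Spp1, 14 and 46 for Cd9, 27 and 30 for Ccl4, 4 and 0 for Folr2, and 9 and 1 for Vsig4. Ccr2, a receptor known from monocytes, had a UMI in 0%, 4.07%, 37.0% and 47.7% of thinned cells of the high class, against 1.85%, 1.84%, 4.66% and 2.38% in the low class. The part of this difference in the interactions was not tested. Without testis replicate 2, 0 interactions were called by edgeR (181 at an unadjusted p below 0.05).

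**Figure D5:**
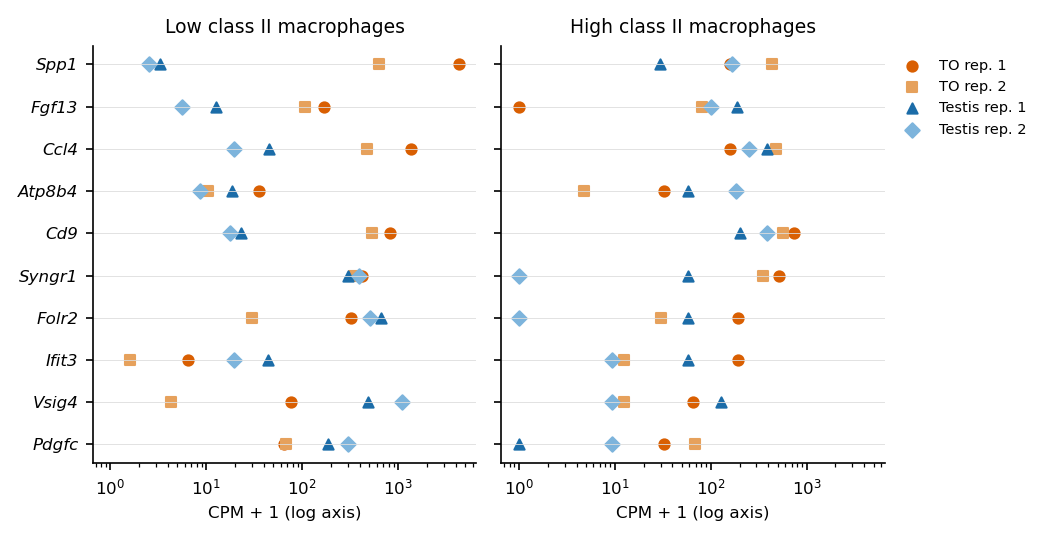
Levels (CPM + 1, log axis) in low (left) and high (right) class II macrophages for the 5 genes with the most positive and the 5 with the most negative called interaction, 1 point per library. Spp1 in testes is at 2.32 and 1.53 CPM on the left and at 28.6 and 166 CPM on the right, while TO replicate 1 on the right comes from 6 cells.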

How the data were processed

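The authors made UMI count matrices with Cell Ranger 7.1.0 and the mm10 build, per the labels. They deposited the counts before the study's quality filters and without normalization. The 4 libraries held 14643 and 12491 barcodes with 106577822 and 119966959 UMIs (TOs), and 12179 and 11826 barcodes with 77016449 and 74988295 UMIs (testes). Filters of 1000 to 5000 genes, no more than 20000 UMIs and no more than 10% of UMIs from mitochondrial genes left 10759, 9463, 10804 and 10458. No doublets were removed in the main analysis. As an alternative, the barcodes with the highest Scrublet scores (scanpy 1.11.5, a quota of 0.8% per 1000 barcodes) were left out. Barcodes shared between pairs of libraries numbered 24 to 33 among those kept. No clustering was done.

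UMIs were summed per library and tested in R 4.3.3 with edgeR 4.0.16 (TMM, filterByExpr), with libraries as replicates, and DESeq2 1.42.0 as an alternative. The members and lists were chosen with earlier results of these data known. Named were the 10 called genes with the largest rise and the 10 with the largest fall that reached 50 CPM and were 2 times above the other cells, the rule genes, and for each of 16 lists up to 4 called and 2 abundant uncalled genes. Other genes, such as Tnf, Cxcl2, Mertk and Mki67, were chosen after their values were seen. A further 14 lists covered other cell types. Values of some list genes are not reported here. Intervals are exact at 95%, and floors are 3 counts. Of 32285 gene IDs, 32235 were found in GENCODE vM21 (GRCm38). Cell Ranger drops reads that match several genes. On simulated sums of 11297 genes with 50 genes at each fold, edgeR called 4%, 86%, 98% and 100% of those changed 2, 4, 8 and 16 times, with 1 unchanged gene. Simulated interactions of 4 and 16 times, 100 genes at each among 11297 (8420 in the data), were called in 4% and 41%. Python 3.11.15, numpy 2.4.6, pandas 2.3.3, scipy 1.17.1 and matplotlib 3.10.9 were used.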

Additional observations from a re-analysis of the deposited data

Results flagged for a closer look

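The genes below drew attention because the difference between TOs and testes was not the same in low and high class II macrophages, by edgeR's interaction test. More positive in the low class were Spp1 (log2 interaction 7.42), Fgf13 (4.74), Ccl4 (4.37), Atp8b4 (4.35) and Cd9 (3.98). More negative were Pdgfc (-5.51), Vsig4 (-4.66), Ifit3 (-4.61), Folr2 (-4.40) and Syngr1 (-4.02). In the high class, TO replicate 1 gave these 10 genes between 0 and 23 UMIs from 6 cells. Testis replicates 1 and 2 gave them 0 to 27 and 0 to 46 UMIs there. Fgf13 was at 170, 105, 11.6 and 4.58 CPM in the low class and at 0, 80.2, 186 and 99.8 CPM in the high class, in the library order used above. None of the 10 was called without testis replicate 2, although all kept their sign. Ifit3 was not called on leaving out any single library, and Pdgfc, Atp8b4, Folr2 and Vsig4 were also lost without TO replicate 2. Leaving out 1 library moved Fgf13 to at most 14.03, Syngr1 to between -12.18 and -2.37, Pdgfc to between -10.93 and -4.18, and Atp8b4 to between 2.77 and 5.69.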

How the results depend on the processing

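Counts of called genes are given as higher and lower in TOs, beside 336 and 1457. Leaving out 1 library gave 3 to 421 higher and 197 to 1329 lower genes, and 0 to 65 interactions beside 54. Every gene with any UMI gave 719 higher, leaving out genes from 2 times the other cells gave 100 and 156, subtracting background 0 and 0, and an adjusted p below 0.05 with no fold threshold 845 higher. The replicate block gave 684 higher and 1732 lower. Library numbers were shared by label only, with r = 0.12 between deviations across genes, so they were not taken as pairs. Other settings stayed within 1.5 times of both counts. The 20 genes named for their fold kept their direction in every setting that tested them. The share of cells kept reversed with Vim-positive cells or macrophages as denominator (-1.38 percentage points), a setting chosen after the data were seen, and kept its sign without any single library and in the other settings. Ccnb2 reversed with background subtracted (0.43). Background was estimated from spermatid UMIs as 43.0%, 22.5%, 38.7% and 16.5% of member UMIs. TO members held 8 and 35 such UMIs and testis members 3199 and 5709, so the estimate is less precise in TOs. It also depends on the list used, and lists differ in both directions. Leydig cell genes in TO replicate 1 were at 341 CPM in members and 2785 CPM in other cells kept, a smaller part than 43.0%. In testis replicate 2 they were at 688 and 1306 CPM, a larger part than 16.5%. The causes were not tested.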
